A study of Mus musculus with 15 samples.

Results

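Neutrophils of mouse bone marrow were compared with common myeloid progenitors (CMP), the uncommitted cells from which granulocytes, monocytes, red cells and platelets descend. The comparison covers 5694 genes, out of 14801 rows in the deposited expression table. Genes with a symbol entered if their log2 CPM, a read number scaled to the size of the library, exceeded 3 in 3 or more of the 6 libraries concerned. Each population had 3 libraries, made with the NuGEN Universal Plus mRNA-Seq kit after FACS sorting of freshly taken marrow; the animals are described as healthy. The labels call the populations Neutrophil and CMP. The sources used here do not give strain, age, sorting markers or the number of animals. A further progenitor, CD115plusGMP, entered the statistical fit only to help estimate the spread between libraries. Nothing says that libraries of a population came from separate animals, so the p-values rest on differences among these libraries alone, and those may be technical.

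The libraries were shallow, with 887982 to 1401958 reads for Neutrophil and 953362 to 1444403 for CMP over the rows of the table. The deposited scaling divides by a library size that is 0.254 to 0.446 times this total in Neutrophil but 0.861 to 0.908 times in CMP. A log2 CPM of 3 was therefore passed with 3 to 5 reads in a Neutrophil library and with 7 to 10 reads in a CMP library. Rows without a symbol, which the comparison leaves out, held 63.5% to 69.5% of reads in Neutrophil and 55.6% to 55.8% in CMP. Reads are given below as recovered from the table, in the order of replicates 1, 2 and 3, and are not scaled. Mitochondrial ND6, which lies on the strand opposite to the other 12 mitochondrial protein genes, took 69.1% to 90.9% of mitochondrial reads in Neutrophil and 81.7% to 85.9% in CMP. Reads may thus have been counted for the gene opposite to the one they came from, which was not tested locus by locus. Values below, such as those of Mki67 or Foxd4, are for gene loci and need not be expression of the named gene, and where another gene has at least 50 bases of exon on the opposite strand it is named as the partner. Neutrophil replicate 3 stood apart on the third principal component, which held 5.99% of the variance, at -75.56 against 33.83 and 50.31. Results without it are given below for some genes and lists only. List counts that also changed without it include translation factors lower (21 to 26), mitosis genes lower (26 to 24) and Fc receptor and ITAM signalling genes higher (20 to 19).

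Neutrophils are short-lived phagocytes that kill microbes with stored granule proteins and with oxidants made by the NADPH oxidase. Granules are filled in order during maturation in the marrow: azurophilic granules are filled in promyelocytes, then specific granules, then gelatinase granules, while cell division stops. CMP divide, make many ribosomes and still hold erythroid and megakaryocytic potential.

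Of the 5694 genes, 2369 were higher in Neutrophil and 1353 were lower, with a limma adjusted p under 0.05 and a log2 difference of at least 1. Over all 6091 rows above the threshold, with or without a symbol, 65.9% passed, 41.4% higher and 24.4% lower. Fewer cells of a type and less RNA per cell cannot be told apart in such bulk samples. The split depends on the scaling. With plain library totals, which lower the median difference of all rows by 1.36, 1491 genes were higher and 2144 lower. Under the deposited values and 4 other scalings alike, 1491 genes were higher and 1352 lower. Over all rows these shares were 26.1% and 24.4%. Of the genes, 1154 passed the threshold only through Neutrophil and 706 only through CMP. Such genes had to differ, so counts below describe the lists and are not support for their direction.

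**Figure D1:**
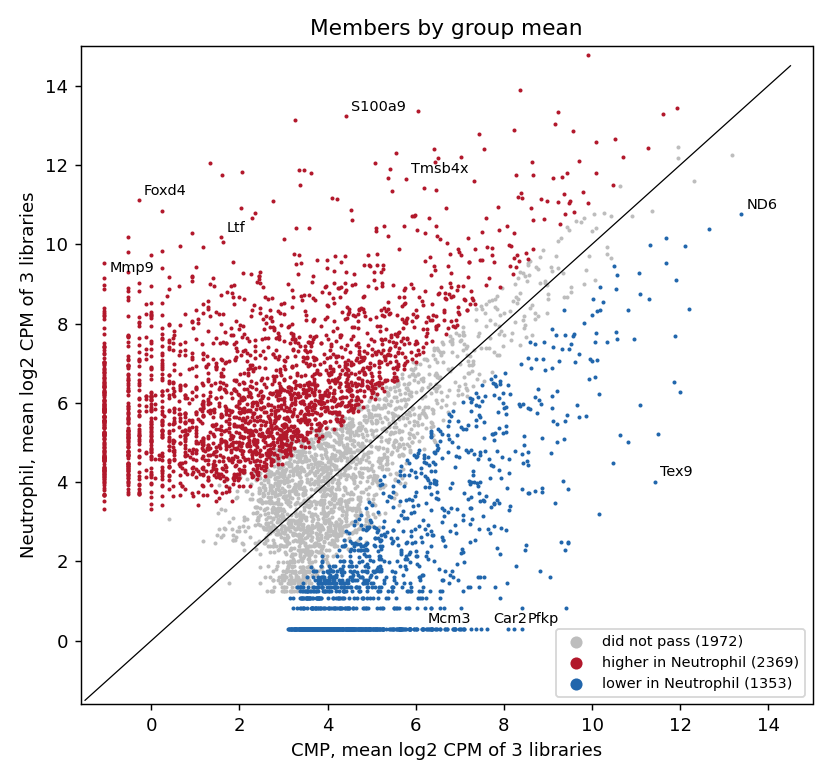
Mean log2 CPM of 3 CMP libraries (horizontal axis) and of 3 Neutrophil libraries (vertical axis) for the 5694 genes, coloured by whether they passed the test. The 2369 higher genes lie above the line of equal values and the 1353 lower genes below it, and the straight rows of points at the left and bottom are genes with few or no reads in a group.

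Marker genes matched the Neutrophil label, and only partly the CMP label. The 12 neutrophil markers fixed for this check summed to 11400 to 39300 CPM in the Neutrophil libraries and to 36.9 to 40.2 CPM in the CMP libraries. All 12 had reads in Neutrophil, although Ly6g, the usual sorting antigen, had only 0, 4 and 16. The 10 progenitor markers summed to 97.1 to 113 CPM in CMP and to 120 to 245 CPM in Neutrophil. Erythroid list genes, 27 in the table, summed to 883 to 1100 CPM in CMP and to 235 to 505 CPM in Neutrophil. All 27 had 10 or more reads in CMP. Flt3, Gata2, Meis1 and Tal1 had no read in Neutrophil, and Erg had none in CMP. The stem cell factor receptor Kit had 10, 7 and 6 reads in CMP against 0, 0 and 1, too few for inclusion. Myb, a progenitor transcription factor whose partner is Gm26577, had 18, 33 and 37 reads in CMP and 35, 62 and 43 in Neutrophil, a log2 difference of 2.05 ± 0.46 (SE, n = 3 per group here and below; limma adjusted p = 0.00123). That call for Myb was lost under other scalings. Kit and Myb are shown as fixed progenitor markers. Without Neutrophil replicate 2 the fitted log2 difference of Erg went from 5.35 to 4.66, which moves its fold change by over 1.5-fold. Here and below, a log2 difference said to move by over 1.5-fold is one whose fold change moved that far. The log2 value itself moved less.

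**Figure D2:**
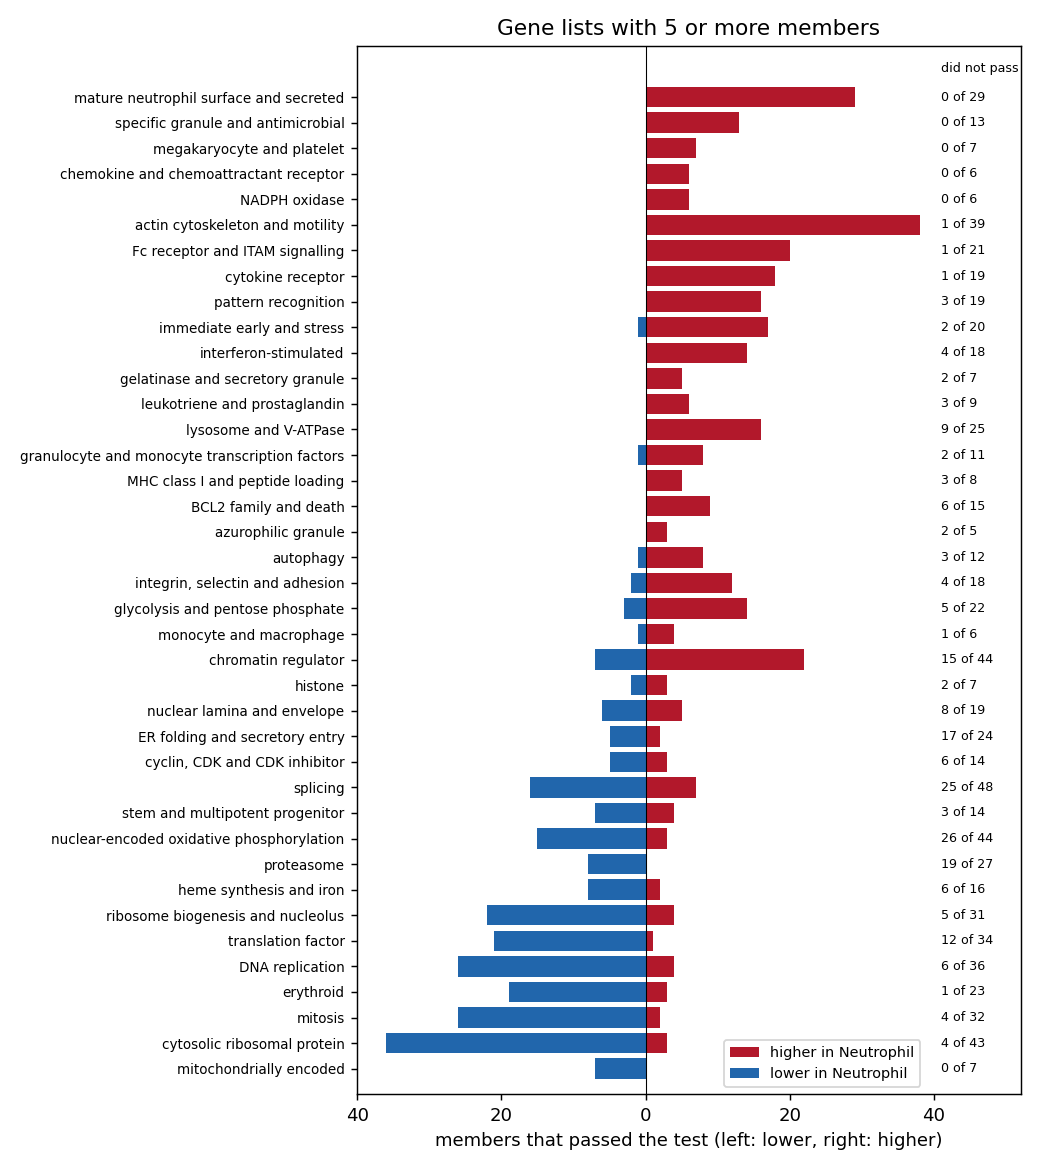
Members of each gene list that were lower (bars to the left) or higher (bars to the right) in Neutrophil under the deposited scaling, for lists with 5 or more members, with the number that did not pass at the right. Granule, receptor and motility lists lie on the higher side, and ribosomal, cell division and erythroid lists on the lower side.

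Proteins of specific granules, which sequester iron, digest matrix and kill bacteria, had the highest median difference of any list. All 13 members were higher, under every scaling, with a median of 8.51 against 0.70 over all rows. The 2 groups did not overlap for any of the 13 members, against 70.1% of all rows. Each of the 13 had passed through Neutrophil alone, so the rule for inclusion fixed this lack of overlap. None of the 13 has an annotated partner. Ltf, which encodes the iron-binding lactoferrin, had 279, 215 and 1698 reads in Neutrophil and 2, 3 and 3 in CMP. Its log2 difference was 8.59 ± 0.57 (limma adjusted p = 3.01e-08). Ngp, a cathelicidin-related granule protein, had 534, 442 and 1948 reads against 3, 3 and 6, a log2 difference of 8.86 ± 0.43. Both genes were high in each Neutrophil library and highest in replicate 3. The collagenase Mmp8 had 303, 302 and 706 reads against 3, 0 and 2 (9.31 ± 0.75). Lysozyme Lyz2 had 268, 220 and 1025 against 2, 3 and 1 (8.75 ± 0.48), and haptoglobin Hp had 127, 114 and 863 against 1, 0 and 3 (8.77 ± 0.70). Cd177, a neutrophil surface glycoprotein, had 122, 46 and 299 reads and none in CMP, at least 387-fold higher with a floor of 3 reads over the CMP group. Such ratios and bounds use the deposited library sizes; with plain library totals the same bound is 156-fold, and every ratio or bound given as higher is 2.48 times smaller and every one given as lower 2.48 times larger. Replicate 3 was the highest Neutrophil library for 12 of the 13 members, and the counts are the same without it. Fitted log2 differences moved by over 1.5-fold with a library left out for Hp from 8.77 to 8.03 without CMP replicate 2 and 8.14 without Neutrophil replicate 3, Ltf from 8.59 to 7.98 without Neutrophil replicate 3 and Mmp8 from 9.31 to 9.99 without CMP replicate 1 and 8.45 without CMP replicate 2.

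Granule genes are known targets of C/EBP transcription factors, and promoters of 3 that rose together are shown for that reason. The 250 bases before the annotated start site are given 5′ to 3′ on the gene's strand, from RefSeq on GRCm38.p6, with matches to TTGCNNAA on either strand in capitals. They are Ltf (chr9:111019042-111019291, plus strand), Ngp (chr9:110419558-110419807, plus strand) and Lcn2 (chr2:32387740-32387989, minus strand), the last encoding the siderophore-binding lipocalin and chosen after its values were seen.
Ltf: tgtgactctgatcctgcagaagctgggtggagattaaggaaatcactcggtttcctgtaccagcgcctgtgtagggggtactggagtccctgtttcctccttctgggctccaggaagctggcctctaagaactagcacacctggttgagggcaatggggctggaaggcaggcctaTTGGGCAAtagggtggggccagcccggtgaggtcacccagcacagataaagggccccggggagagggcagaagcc
Ngp: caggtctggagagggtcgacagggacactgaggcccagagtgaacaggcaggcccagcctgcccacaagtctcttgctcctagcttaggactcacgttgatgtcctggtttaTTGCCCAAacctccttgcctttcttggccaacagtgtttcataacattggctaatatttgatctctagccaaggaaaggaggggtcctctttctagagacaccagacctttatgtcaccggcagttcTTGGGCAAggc
Lcn2: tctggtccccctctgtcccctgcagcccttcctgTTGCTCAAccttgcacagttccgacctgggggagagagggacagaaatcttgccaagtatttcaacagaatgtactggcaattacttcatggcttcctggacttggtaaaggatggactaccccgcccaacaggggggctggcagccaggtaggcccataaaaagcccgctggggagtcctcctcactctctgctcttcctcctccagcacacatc
The match begins 75 bases before the start site in Ltf, 138 and 11 bases before it in Ngp, and 216 bases before it in Lcn2. Lcn2 had 81, 75 and 518 reads in Neutrophil and 0, 1 and 1 in CMP, a ratio of 837 (95% counting interval 231 to 6926). Promoter windows of 300 bases, 250 before the start and 50 after, were in RefSeq for 10 of the 13 members. The motif was in 4 of these 10, those of Lcn2, Ltf, Mmp8 and Ngp, and in 10.8% of all 32851 windows. It was in 3 of 6 gelatinase granule windows, in 2 of 28 windows of the mature neutrophil list and in 3 of 39 of the DNA replication list. These are letter matches and not measured binding sites. With a library left out, the fitted log2 difference moved by over 1.5-fold for Lcn2 from 8.51 to 7.92 without Neutrophil replicate 3.

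S100 proteins, small calcium-binding proteins of which S100a8 and S100a9 form calprotectin, were higher for all 4 members under every scaling. S100a9 had 2384, 1691 and 14213 reads in Neutrophil against 15, 25 and 27 in CMP, a log2 difference of 8.81 ± 0.50 (limma adjusted p = 7.1e-09). S100a8 had 459, 360 and 2164 against 7, 4 and 4 (8.43 ± 0.72). Replicate 3 was far above the other Neutrophil libraries for both, and no library of the groups overlapped. S100a6 had 31, 31 and 215 reads against 0, 1 and 2, a ratio of 229 (77.7 to 1119). S100a11 had 7, 7 and 72 against 0, 1 and 0, a ratio of 214 (37.3 to 8534). A library left out moved the fitted log2 difference by over 1.5-fold for S100a11 from 5.84 to 5.06 without Neutrophil replicate 3, S100a6 from 6.97 to 6.36 without Neutrophil replicate 3 and S100a9 from 8.81 to 8.19 without Neutrophil replicate 3.

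Genes of gelatinase and secretory granules were higher for 5 of 7 members under every scaling, with a median of 7.21. Mmp9, gelatinase B itself, had 151, 129 and 627 reads in Neutrophil and none in CMP, at least 751-fold higher (limma adjusted p = 1.94e-08). Retnlg, a resistin-like secreted protein, had 240, 196 and 842 against 0, 1 and 1, a ratio of 1587 (438 to 13119). Anxa1, an anti-inflammatory annexin, had 113, 191 and 461 against 3, 1 and 1 (8.13 ± 0.56). The proteases Adam8 (ratio 262, 71.6 to 2178) and Mmp25 (ratio 128, 34.5 to 1070) were also higher. Cr1l, a complement regulator, and Adam17, a sheddase with the partner Iah1, did not pass, with differences of 1.06 ± 0.74 and 0.71 ± 0.25. That of Cr1l turned negative with plain library totals, and that of Adam17 under all 4 other scalings. Leaving out a library moved fitted log2 differences by over 1.5-fold for Adam8 from 7.21 to 7.98 without CMP replicate 2 and Mmp25 from 6.28 to 5.63 without CMP replicate 3.

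Azurophilic granule genes were mostly absent from the comparison. Only 5 of 12 were above the threshold, and Mpo, Elane, Prtn3 and Ctsg, which encode the main enzymes of these granules, were not. The proteoglycan Srgn, which packs granule contents, had 42, 37 and 138 reads against 14, 14 and 18 (3.31 ± 0.41; limma adjusted p = 7.9e-06). Prss57, a serine protease whose partner is Fstl3, had 148, 224 and 209 against 18, 21 and 20 (4.62 ± 0.33), and Hexa, a lysosomal hexosaminidase with the partner Tmem202, had 22, 46 and 76 against 5, 2 and 5 (4.72 ± 0.52). These 3 were higher under every scaling. Gusb, another lysosomal hydrolase, did not pass under the deposited scaling, at -1.13 ± 0.51, but was called lower under all 4 other scalings (-2.49 to -2.06) and with all 15 libraries in the fit. Without Neutrophil replicate 2 or 3, 1 of the 5 was called lower.

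All 6 NADPH oxidase genes were higher under every scaling, with a median of 6.49. The enzyme is a membrane flavocytochrome, encoded by Cybb and Cyba, that is switched on by cytosolic subunits and the GTPase Rac2. Cybb had 64, 49 and 309 reads in Neutrophil and 0, 4 and 0 in CMP, a log2 difference of 7.95 ± 0.77 (limma adjusted p = 9.17e-07). Cyba had 61, 93 and 280 against 5, 3 and 6 (5.92 ± 0.48). Of the cytosolic subunits, Ncf1, with the partner Gtf2ird2, differed by 7.07 ± 0.52, and Ncf4 had a ratio of 86.9 (28.9 to 428). The Ncf1 row had 114, 114 and 432 reads in Neutrophil against 6, 2 and 2 in CMP. The Gtf2ird2 row had more, 759, 1046 and 1022 against 11, 19 and 25. Rac2 had 67, 76 and 238 reads against 3, 11 and 8 (5.31 ± 0.55). For all 6 genes replicate 3 was the highest Neutrophil library, and the lowest Neutrophil library still lay above the highest CMP library. For the 5 that had passed through Neutrophil alone, the rule for inclusion fixed that order. Fitted log2 differences moved by over 1.5-fold with a library left out for Cybb from 7.95 to 8.9987 without CMP replicate 2 and 7.30 without CMP replicate 3, Ncf1 from 7.07 to 7.66 without CMP replicate 1 and Ncf4 from 5.66 to 6.31 without CMP replicate 1 and 4.89 without CMP replicate 3.

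**Figure D3:**
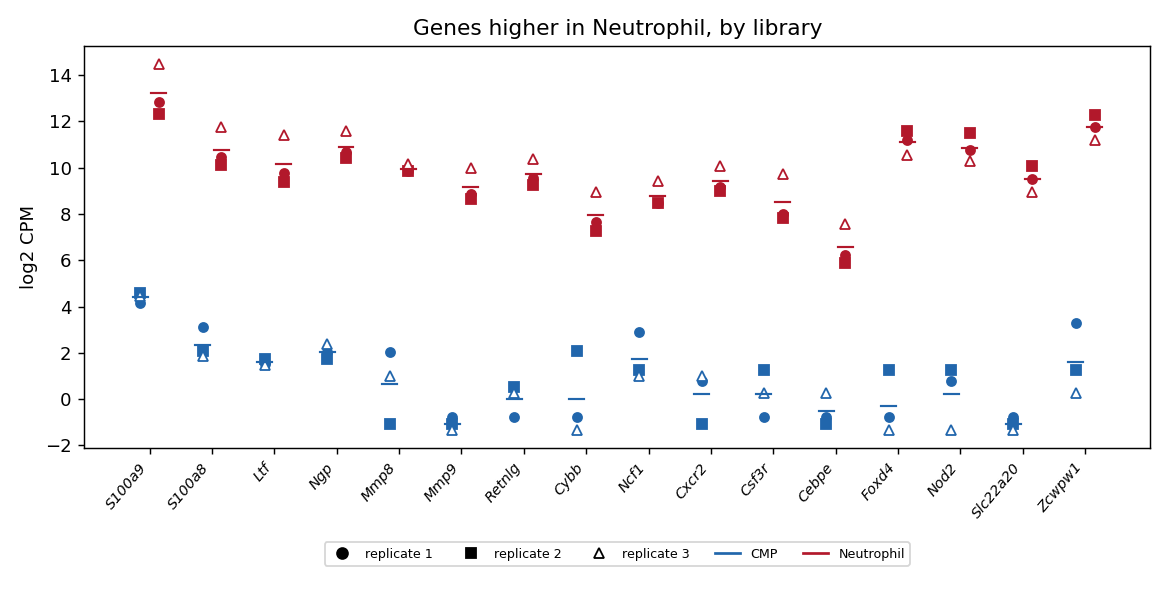
Log2 CPM of 16 genes higher in Neutrophil, with 1 point per library (symbols mark the replicate) and a bar at each group mean. Neutrophil replicate 3 is the highest Neutrophil library for S100a9, Ltf and Cybb and the lowest for Foxd4, Nod2, Slc22a20 and Zcwpw1, and no Neutrophil point reaches the CMP points of the same gene.

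Surface receptors and secreted proteins of mature neutrophils were higher for all 29 members of that list, under every scaling, with a median log2 difference of 7.0034. Of these members 28 had passed through Neutrophil alone. Cxcr2, the chemokine receptor that draws neutrophils out of the marrow, had 188, 164 and 667 reads against 1, 0 and 2, a ratio of 844 (288 to 4098). Csf3r, the receptor for granulocyte colony-stimulating factor, had 83, 73 and 529 against 0, 2 and 1, a ratio of 567 (193 to 2757). Il1b, an inflammatory cytokine, had 86, 81 and 230 against 0, 1 and 1, a ratio of 493 (136 to 4085). The chemokine Ccl6 had 135, 73 and 254 reads and none in CMP, at least 382-fold higher. The lectin receptor Clec4d had 93, 68 and 260 against 0, 0 and 1, and Cd300ld, an activating receptor, had 73, 39 and 137 and none in CMP, at least 206-fold higher. Each of these genes was well above CMP in each Neutrophil library. With a library left out, the fitted log2 difference moved by over 1.5-fold for Csf3r from 8.28 to 7.67 without Neutrophil replicate 3 and Cxcr2 from 9.17 to 8.51 without CMP replicate 2.

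All 6 chemoattractant receptors above the threshold were higher under every scaling. C5ar1, the receptor for complement C5a, had 32, 24 and 118 reads and none in CMP, at least 144-fold higher. Fpr2, a formyl peptide receptor, had 14, 20 and 51 and none in CMP, at least 70.4-fold higher. Ccr1 had a ratio of 83.6 (27.8 to 412). S1pr4, a sphingosine phosphate receptor, had 190, 285 and 276 reads against 18, 30 and 28 (4.66 ± 0.33). Cxcr4, which retains neutrophils in marrow, had 22, 16 and 45 against 2, 4 and 6 (3.99 ± 0.52; limma adjusted p = 1.43e-05). Cxcr4 and Cxcr2, whose known actions oppose each other, were thus both higher. A library left out moved the fitted log2 difference by over 1.5-fold for Ccr1 from 6.06 to 6.87 without CMP replicate 3, 6.86 without Neutrophil replicate 1 and 5.43 without Neutrophil replicate 2.

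Immune signalling lists also held mostly higher genes. Of 21 Fc receptor and ITAM signalling genes, 20 were higher, 18 of them under every scaling. The rule for inclusion fixed the direction for members that had passed through Neutrophil alone. These were 16 of the 21, 14 of 19 cytokine receptor genes and 16 of 19 pattern recognition genes. Over all rows 41.4% were higher, and 26.1% under every scaling. The Src-family kinase Fgr had 51, 34 and 189 reads and none in CMP, at least 227-fold higher. The immunoglobulin receptor Fcgr3 had a ratio of 509 (90.4 to 20208). Of 19 cytokine receptor genes 18 were higher, 15 under every scaling, among them Csf2rb, the shared chain of receptors including that for GM-CSF, at least 92.7-fold, and Tnfrsf1a, a receptor for tumour necrosis factor, at least 79.5-fold. Of 19 pattern recognition genes 16 were higher, 15 under every scaling. Il1rn, the natural antagonist of the interleukin 1 receptor, was at least 73.7-fold higher, the decoy receptor Il1r2 at least 67.1-fold, and the RNA sensor Tlr13 at least 57.1-fold. Il4ra, with the partner Gm44876, was at least 88.6-fold higher. Leaving out a library moved fitted log2 differences by over 1.5-fold for Fcgr3 from 7.72 to 8.38 without CMP replicate 1, Il4ra from 6.90 to 7.78 without Neutrophil replicate 2 and Tlr13 from 6.31 to 6.89 without Neutrophil replicate 2.

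Interferon-stimulated genes were higher for 14 of 18 members, 11 under every scaling, led by the Schlafen family. Slfn1 had 130, 115 and 458 reads and none in CMP, at least 582-fold higher. Slfn4 had 155, 115 and 396 against 0, 0 and 1, a ratio of 1654 (296 to 65433), and Slfn2 had 42, 34 and 157 against 1, 0 and 2, a ratio of 193 (65.2 to 942). The antiviral synthetase genes Oas3 (5.65 ± 0.62) and Oasl2 (5.60 ± 0.78) were higher as well. Of the MHC class I list, 5 of 8 members were higher. Only 2 were higher under every scaling, a share near the 26.1% of all rows. Those were H2-D1, a classical class I gene with 198, 125 and 768 reads against 31, 38 and 51 (4.12 ± 0.45), and H2-T23, a non-classical one (3.79 ± 0.64). Fitted log2 differences moved by over 1.5-fold with a library left out for Oasl2 from 5.60 to 6.30 without CMP replicate 1 and Slfn2 from 7.01 to 6.35 without CMP replicate 2.

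Adhesion and cytoskeletal genes, which serve crawling and phagocytosis, were higher for 38 of 39 members of the actin list, 29 under every scaling, with a median of 4.06. Tmsb4x, which encodes the actin-sequestering thymosin β4, had 941, 902 and 2608 reads against 42, 56 and 77 (5.88 ± 0.26; limma adjusted p = 7.26e-10). Lcp1, the leukocyte actin bundler, with the partner Gm15628, had 298, 258 and 1225 against 4, 8 and 15 (7.13 ± 0.45). The myosin Myo1f (7.19 ± 0.76) and the actin polymerisation factors Vasp (6.56 ± 0.49) and Fmnl1 (6.15 ± 0.55; partner Gm20511) followed. Of 18 adhesion genes 12 were higher, 11 under every scaling, and 2 were lower. Itgam and Itgb2, the chains of the integrin Mac-1, had 191, 149 and 437 against 3, 1 and 1 (8.24 ± 0.61) and 73, 41 and 346 against 3, 2 and 3 (6.39 ± 0.64). The sialomucin Spn went the other way, with 12, 6 and 16 reads against 54, 104 and 121 (-1.63 ± 0.38), and Icam1, with the partner Gm47079, had no read in Neutrophil and 8, 13 and 10 in CMP. Spn and Icam1 were picked for mention after their values were seen, as the exceptions of their list. With a library left out, the fitted log2 difference moved by over 1.5-fold for Myo1f from 7.19 to 6.39 without CMP replicate 2 and 7.86 without CMP replicate 3.

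Sugar metabolism was split within the glycolysis and pentose phosphate list, with 14 of 22 members higher, 11 under every scaling, and 3 lower. Pkm, pyruvate kinase, had 185, 148 and 493 reads against 5, 4 and 7 (6.76 ± 0.35; limma adjusted p = 2.9e-09). The glycogen phosphorylase Pygl had 82, 79 and 408 against 4, 1 and 2 (7.13 ± 0.74), and the pentose phosphate enzyme Pgd had 117, 84 and 331 against 9, 6 and 9 (5.52 ± 0.46). The myeloid hexokinase Hk3 had a ratio of 184 (49.99 to 1532). Pfkp, a phosphofructokinase, lay at the other extreme, with no read in Neutrophil and 325, 232 and 602 in CMP, at least 156-fold lower. Pfkp shares 748 bases of exon with Pitrm1 on the opposite strand, and the Pitrm1 row had 22, 37 and 55 reads in CMP and none in Neutrophil. Pfkm (0, 4 and 0 against 23, 30 and 25) and Rpia (0, 0 and 18 against 22, 33 and 45) were the other lower members, also named after their values were seen. The call of Rpia was lost in 4 of the 6 fits that left out a library (adjusted p = 0.0507 to 0.0768), and its groups overlapped. A library left out moved the fitted log2 difference by over 1.5-fold for Hk3 from 7.0031 to 7.65 without CMP replicate 3, Pfkm from -3.29 to -4.50 without Neutrophil replicate 2 and -2.45 without Neutrophil replicate 3 and Rpia from -2.92 to -4.34 without Neutrophil replicate 3.

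Lipid mediator, lysosomal and survival genes also differed. Of 9 leukotriene and prostaglandin genes 6 were higher, 4 under every scaling, including the prostacyclin receptor Ptgir (53, 44 and 92 reads and none in CMP, at least 156-fold) and Alox5, the leukotriene-forming lipoxygenase (ratio 125, 42.0 to 613). Of 25 lysosomal genes 16 were higher, 11 under every scaling; Psap, which encodes the saposins, had 80, 75 and 206 against 12, 18 and 27 (3.91 ± 0.33). Tfeb, a transcription factor of lysosomal genes, had 10, 4 and 85 reads against 0, 0 and 1, a ratio of 246 (43.1 to 9809), and most of its reads came from replicate 3. In the BCL2 and death list 9 of 15 were higher, 7 under every scaling. Mcl1, on which neutrophil survival depends, had 201, 191 and 421 against 8, 30 and 43 (4.87 ± 0.52). Leaving out a library moved fitted log2 differences by over 1.5-fold for Alox5 from 5.95 to 5.29 without CMP replicate 2 and 5.23 without Neutrophil replicate 3 and Tfeb from 5.83 to 6.59 without Neutrophil replicate 2 and 4.94 without Neutrophil replicate 3.

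Among granulocyte and monocyte transcription factors, 8 of 11 were higher, 7 under every scaling, and 1 was lower. Cebpe, required for specific granules, had 24, 19 and 119 reads against 0, 0 and 1, a ratio of 402 (71.2 to 15989). Cebpb, with the partner Tmem189, had 58, 57 and 175 against 3, 3 and 4 (5.83 ± 0.45), and Spi1, which encodes PU.1, had 41, 29 and 171 against 6, 3 and 3 (5.16 ± 0.69). Cebpa, with the partner Gm45091, had a ratio of 45.5 (14.8 to 228). Irf8, which favours monocytes over granulocytes, was the lower member (named, like Sptb and Mki67 below, after its values were seen), with no read in Neutrophil and 8, 14 and 17 in CMP, at least 5.23-fold. Immediate early genes were higher for 17 of 20 members, 16 under every scaling. Fos had 10, 8 and 54 reads and none in CMP, at least 59.6-fold higher, Fosl2 had a ratio of 417 (115 to 3460), and the antiproliferative Btg1 was at least 105-fold higher. Fitted log2 differences moved by over 1.5-fold with a library left out for Fosl2 from 8.30 to 8.95 without CMP replicate 3.

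Erythroid genes were lower for 19 of 23 members, 18 under every scaling, with a median of -3.84. Of the 23, 18 had passed through CMP alone. Car2, a carbonic anhydrase of red cells, had 134, 225 and 289 reads in CMP and none in Neutrophil, at least 87.0-fold lower. Car1 had 58, 99 and 106 and none, at least 35.3-fold lower. Klf1, the erythroid transcription factor, had 44, 57 and 69 and none, at least 22.8-fold lower (limma adjusted p = 2.22e-05). The transferrin receptor Tfrc had 81, 92 and 123 and none, at least 39.7-fold, and the water channel Aqp1 at least 36.0-fold. Hemgn, a nuclear protein of erythroid progenitors that is not on the list, had 98, 96 and 123 and none, at least 42.5-fold lower. Heme synthesis and iron genes were lower for 8 of 16 members, 7 under every scaling, and higher for 2, neither under every scaling; the ferrochelatase Fech, the last enzyme of the pathway, was at least 12.7-fold lower. Sptb, a spectrin chain, was the erythroid gene higher under every scaling, with 53, 129 and 96 reads against 31, 38 and 24 (2.87 ± 0.45).

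Stem and multipotent progenitor genes were mixed, 7 of 14 lower and 4 higher, 3 of these under every scaling. The hematopoietic transcription factor Tal1 had 24, 36 and 47 reads in CMP and none in Neutrophil, at least 14.4-fold lower. Gfi1b and Myc had no read in Neutrophil and were each at least 7.78-fold lower. Zfpm1, the GATA1 cofactor FOG-1, had 89, 133 and 94 against 1, 0 and 0, a ratio of 127 lower in Neutrophil (22.7 to 5041). The 7 lower genes were lower under every scaling. Of the higher ones, the ETS factors Erg (3, 16 and 8 reads and none in CMP, at least 22.4-fold) and Fli1 (5, 8 and 34 against 2, 2 and 2; 3.60 ± 0.69) were higher under every scaling. With a library left out, the fitted log2 difference moved by over 1.5-fold for Zfpm1 from -5.80 to -6.49 without Neutrophil replicate 1.

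Cell division genes were mostly lower. In the DNA replication list 26 of 36 members were lower, all 26 under every scaling, and 4 were higher, 2 of them under every scaling. Members of the MCM helicase, which unwinds replication origins, had almost no reads in Neutrophil. Mcm3 had 62, 85 and 77 reads in CMP and none in Neutrophil, at least 30.1-fold lower, and Mcm2 had 45, 87 and 75 and none, at least 27.8-fold. Mcm5 had 44, 45 and 68 and none, at least 21.1-fold, and Mcm6 had 59, 89 and 108 against 0, 3 and 0, a ratio of 34.4 lower (11.6 to 168). Rrm1, the large subunit of ribonucleotide reductase, had 102, 137 and 201 and none, at least 59.1-fold lower. Pola2, a subunit of the primase complex, was an exception, with 95, 130 and 81 reads in Neutrophil and 7, 4 and 15 in CMP (5.01 ± 0.84). A library left out moved the fitted log2 difference by over 1.5-fold for Mcm6 from -5.07 to -6.16 without Neutrophil replicate 2 and -4.29 without Neutrophil replicate 3.

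Replication genes are known targets of E2F factors, so the promoters of 2 MCM genes are shown in the same way, with TTTCCCGC or TTTGGCGC on either strand in capitals. They are Mcm5 (chr8:75109259-75109508, plus strand) and Mcm6 (chr1:128359706-128359955, minus strand).
Mcm5: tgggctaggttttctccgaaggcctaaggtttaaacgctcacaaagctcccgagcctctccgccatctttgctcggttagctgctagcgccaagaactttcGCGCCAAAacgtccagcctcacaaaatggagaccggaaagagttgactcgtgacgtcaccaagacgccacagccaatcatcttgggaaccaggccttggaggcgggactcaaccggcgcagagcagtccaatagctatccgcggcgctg
Mcm6: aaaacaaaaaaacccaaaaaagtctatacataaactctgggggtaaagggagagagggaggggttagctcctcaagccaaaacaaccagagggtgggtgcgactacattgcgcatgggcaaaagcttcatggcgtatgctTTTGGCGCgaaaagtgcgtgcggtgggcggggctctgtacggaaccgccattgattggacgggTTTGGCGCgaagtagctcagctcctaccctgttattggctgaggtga
The match begins 149 bases before the start site in Mcm5 and 110 and 47 bases before it in Mcm6. It was in 8 of 39 windows of the DNA replication list (Cdc6, Cdt1, Dnmt1, Mcm3, Mcm5, Mcm6, Mcm7 and Pola1), in 2 of 27 of the mitosis list and in 1.56% of all windows. No window of the specific granule list held it. Further motifs were searched on both strands. AGATAA, known from binding by erythroid zinc finger factors such as Gata1, was in 11.2% of all windows and in 5 of 17 erythroid windows, but also in 3 of 10 specific granule, 2 of 4 S100 and 2 of 3 NADPH oxidase windows. The remaining motif was GAGGAAGT or GAGGAAGC (ETS factors), in 6.36% of all windows and 3 of 10 specific granule windows.

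Mitosis genes were lower for 26 of 32 members, under every scaling, and higher for 2. Top2a, which untangles chromosomes, had 65, 102 and 141 reads against 0, 0 and 1, a ratio of 124 lower in Neutrophil (22.1 to 4914). Nusap1, a spindle protein with the partner Oip5, had 169, 203 and 219 against 0, 2 and 1, a ratio of 79.3 lower (27.0 to 386). Tpx2 and the kinesin Kif11 had no read in Neutrophil and were at least 13.2-fold and 10.1-fold lower. Mki67, the standard proliferation marker, went the other way. It had 732, 883 and 769 reads in Neutrophil and 190, 245 and 306 in CMP, a log2 difference of 3.08 ± 0.33 (limma adjusted p = 2.11e-06), under every scaling. The other exception was Kif23 (2.07 ± 0.57), also named after its values were seen, whose call was lost under other scalings. Among cell cycle regulators Cdk4, with the partner Tspan31, had no read in Neutrophil, at least 10.6-fold lower, and the inhibitor Cdkn1b was higher (4.05 ± 0.66). Leaving out a library moved fitted log2 differences by over 1.5-fold for Nusap1 from -5.95 to -6.61 without Neutrophil replicate 2.

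**Figure D4:**
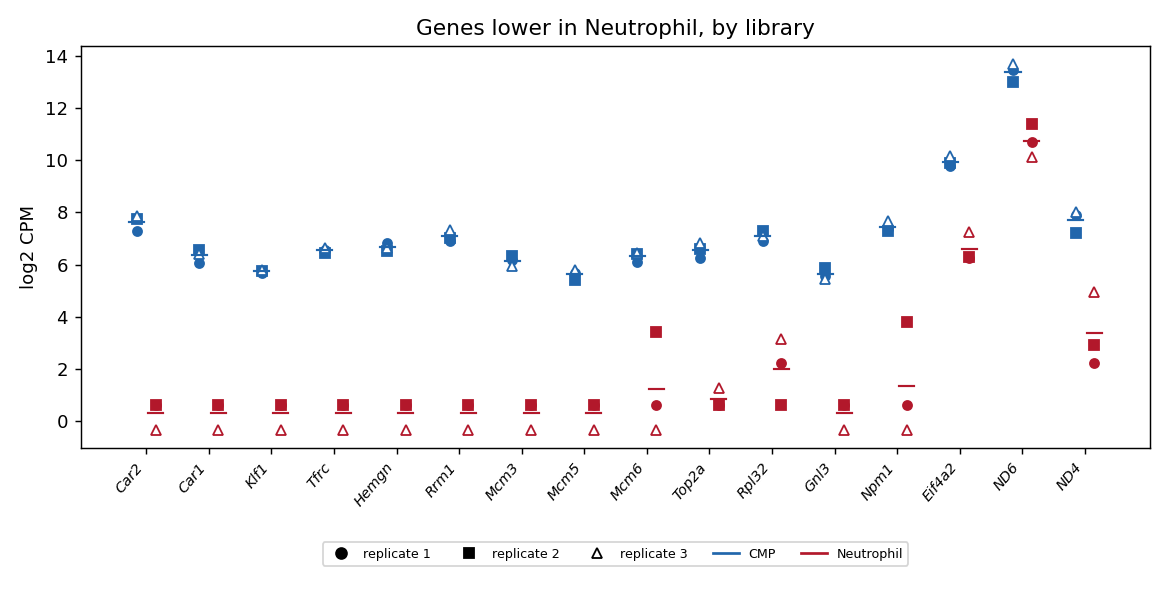
Log2 CPM of 16 genes lower in Neutrophil, with 1 point per library and a bar at each group mean. Many Neutrophil points between -0.32 and 0.63 are libraries with no read, so these genes are given in the text as at least N-fold lower.

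Ribosome and translation genes were lower as groups. Of 43 cytosolic ribosomal protein genes, 36 were lower, all under every scaling, and 3 were higher, 1 under every scaling, with a median of -3.26. Rpl32, with the partner Cand2, had 102, 164 and 172 reads in CMP against 1, 0 and 5 in Neutrophil (-5.11 ± 0.56; limma adjusted p = 3.03e-06). The Cand2 row had far more, with 3883, 4973 and 6221 reads in CMP and 102, 138 and 164 in Neutrophil. Which of the 2 genes the reads of either row came from was not tested. Ribosomal protein genes have many near-identical pseudogenes, so how their reads were assigned is uncertain. Of 31 ribosome biogenesis genes 22 were lower under every scaling and 4 were higher, 1 under every scaling. Npm1, nucleophosmin, had 141, 166 and 254 against 0, 4 and 0 (-6.08 ± 0.79), and the nucleolar GTPase Gnl3 was at least 20.9-fold lower. Of 34 translation factors 21 were lower under every scaling and 1 was higher, not under every scaling. Eif4a2, an RNA helicase of initiation with the partner Rfc4, had 758, 1002 and 1415 reads against 24, 25 and 95 (-3.34 ± 0.28). Fitted log2 differences moved by over 1.5-fold with a library left out for Npm1 from -6.08 to -7.29 without Neutrophil replicate 2 and -5.24 without Neutrophil replicate 3 and Rpl32 from -5.11 to -4.42 without Neutrophil replicate 2.

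All 7 mitochondrially encoded members were lower under every scaling, with a median of -3.48. ND6 had 9776, 8615 and 16369 reads in CMP and 541, 882 and 703 in Neutrophil (-2.63 ± 0.30; limma adjusted p = 3.56e-06). ND4 had 204, 157 and 326 against 1, 2 and 19 (-4.34 ± 0.56), and CYTB 583, 740 and 938 against 41, 49 and 144 (-2.10 ± 0.26). Of 44 nuclear genes of oxidative phosphorylation, 15 were lower under every scaling, 3 were higher, 1 under every scaling, and 26 did not pass. The number lower was 22 without Neutrophil replicate 3, and 10 and 9 without Neutrophil replicate 1 and CMP replicate 2. The ATP synthase subunit Atp5c1 was at least 8.19-fold lower, whereas the complex I subunit Ndufv3 was higher (3.49 ± 0.55). In the proteasome list 8 of 27 were lower, under every scaling, near the 24.4% of all rows, and 19 did not pass. That count was 15 without Neutrophil replicate 3, and 5 and 4 without CMP replicates 2 and 3. Psmd7, a lid subunit, had 145, 177 and 213 against 7, 4 and 6 (-3.50 ± 0.35). In the ER folding list 5 of 24 were lower, a share below that of all rows, and 10 without Neutrophil replicate 3 but 3 without Neutrophil replicate 2. The chaperone genes Canx (-1.39 ± 0.34) and Calr (-1.38 ± 0.41) were among the 5; the call of Calr was lost without Neutrophil replicate 2 (-0.90). With a library left out, the fitted log2 difference moved by over 1.5-fold for ND4 from -4.34 to -5.14 without Neutrophil replicate 3.

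Chromatin, splicing and nuclear envelope lists went in both directions. Of 44 chromatin regulators 22 were higher, 11 under every scaling, and 7 were lower, all under every scaling, shares that are close to the 26.1% and below the 24.4% of all rows. The polycomb methyltransferase Ezh2, with the partner Gm26625, had 59, 76 and 88 reads in CMP against 2, 0 and 0, a ratio of 44.9 lower (12.3 to 373). The histone demethylase Kdm6b, with the partner Kdm6bos, had 30, 26 and 200 in Neutrophil against 1, 2 and 8 (5.47 ± 0.81). Of 48 splicing genes 16 were lower under every scaling, and the 7 that were higher kept no call under every scaling. In the envelope list 5 of 19 were higher, 2 under every scaling, and 6 were lower, led by the pore protein Nup88, at least 8.86-fold. Under every scaling these shares are below the 26.1% higher and not far above the 24.4% lower of all rows. Lmna, which encodes the lamins A and C that mature neutrophils are known to hold little of, had 12, 23 and 24 reads in CMP and none in Neutrophil, at least 7.92-fold lower. A library left out moved the fitted log2 difference by over 1.5-fold for Ezh2 from -5.06 to -5.9981 without Neutrophil replicate 1 and -4.36 without Neutrophil replicate 3 and Kdm6b from 5.47 to 6.06 without CMP replicate 3 and 4.85 without Neutrophil replicate 3.

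**Figure D5:**
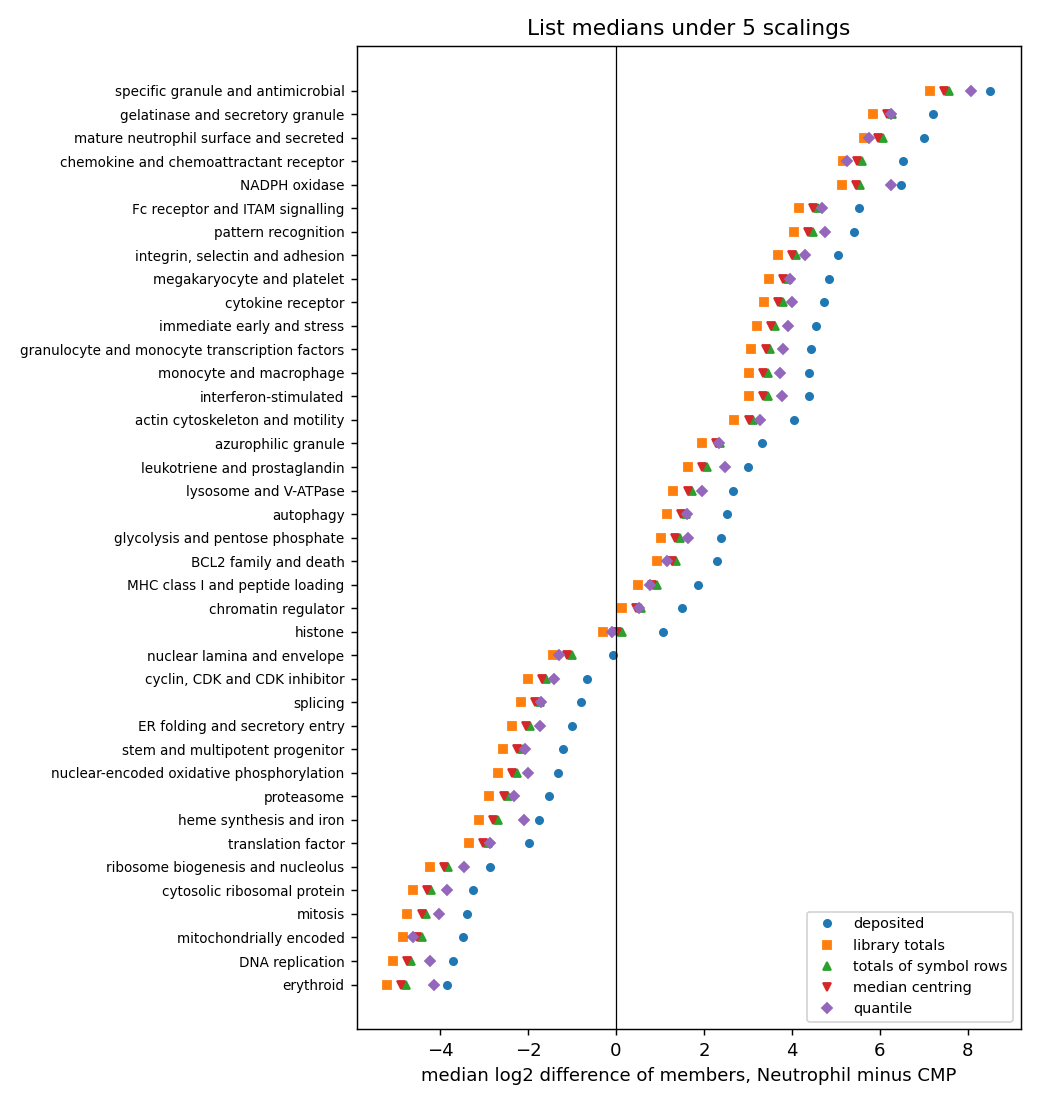
Median log2 difference of each list's members (Neutrophil minus CMP) under the deposited values and 4 other scalings, for lists with 5 or more members. Each other scaling moves the medians to the left, and of the lists shown the histone list alone has medians on both sides of 0.

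Only some of the families counted by symbol are given here. Over all rows 41.4% were higher and 24.4% lower, and under every scaling 26.1% and 24.4%. Of 33 Rab members 17 were higher, 13 under every scaling, and 3 were lower, under every scaling. The next genes were picked for mention after their values were seen. Rab27a, which docks granules for release, had 52, 64 and 148 reads against 2, 2 and 1 (6.61 ± 0.50; limma adjusted p = 9.49e-08). The related GTPase genes Rab31 and Rab3d had no read in CMP, which puts Rab31 at least 104-fold higher and Rab3d at least 68.7-fold higher. Of 9 Gpr receptors 8 were higher, 6 under every scaling, with Gpr141 at least 88.6-fold, and 1 was lower. Nucleoporins with Nup symbols were lower for 6 of 11, under every scaling, while 5 did not pass. Of 75 Slc transporter genes 32 were higher, 19 under every scaling, and 21 lower, and of 56 Zfp genes 23 were higher, 11 under every scaling, and 10 lower, shares not far from those of all rows. Leaving out a library moved fitted log2 differences by over 1.5-fold for Gpr141 from 7.40 to 8.20 without Neutrophil replicate 3.

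Several of the largest differences lay at genes outside the granule lists. Foxd4, a forkhead factor on chromosome 19 (24899236 to 24901197, minus strand, GRCm38, GENCODE M21), had 754, 1005 and 936 reads in Neutrophil and 0, 2 and 0 in CMP, a ratio of 3347 (926 to 27650). Slc22a20, an anion transporter gene also on chromosome 19, had 239, 349 and 312 and none in CMP, at least 745-fold higher. Nod2, a sensor of bacterial muropeptides, had 562, 937 and 772 against 1, 2 and 0, a ratio of 1880 (643 to 9124). Foxd4, Slc22a20 and Nod2 had their lowest Neutrophil log2 CPM in replicate 3, whereas 12 of the 13 specific granule genes had their highest there. Among the 1482 higher genes with no partner, replicate 3 was the highest library for 48.8%, and among the 859 with a partner for 26.0%. Fitted log2 differences moved by over 1.5-fold with a library left out for Foxd4 from 11.40 to 12.16 without CMP replicate 2 and Nod2 from 10.60 to 9.82 without CMP replicate 3.

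Others of these loci lie beside or across a gene on the opposite strand. Zcwpw1, a histone reader gene of the germ line, shares 468 bases of exon with Pilra, an inhibitory receptor of myeloid cells. The Zcwpw1 row had 1111, 1625 and 1476 reads in Neutrophil against 8, 2 and 1 (10.14 ± 0.60; limma adjusted p = 1.19e-08), while the Pilra row had 37, 46 and 219 against 51, 52 and 63. Spatc1, a sperm centriole gene, shares 191 bases with the long noncoding RNA Mirt2 and had 1364, 2112 and 1741 against 5, 6 and 0 (10.72 ± 1.004). Ceacam18 lies 1775 bases from Siglece, a sialic acid receptor, and had 217, 258 and 288 against 0, 0 and 1, and the hair cell cadherin Cdh23 spans Vsir, an immune checkpoint gene, and had 302, 400 and 408 against 0, 1 and 2. The Vsir row had 38, 45 and 294 reads in Neutrophil and 2, 2 and 0 in CMP. With a library left out, the fitted log2 difference moved by over 1.5-fold for Spatc1 from 10.72 to 11.40 without CMP replicate 1, 11.37 without CMP replicate 2 and 9.40 without CMP replicate 3, Vsir from 7.15 to 6.25 without CMP replicate 3 and 6.52 without Neutrophil replicate 3 and Zcwpw1 from 10.14 to 10.99 without CMP replicate 1 and 9.48 without CMP replicate 3.

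The same was seen among lower loci. Tex9, a testis gene, shares 2842 bases with Mns1 and had 2377, 2659 and 3685 reads in CMP against 4, 13 and 4 (-7.41 ± 0.46; limma adjusted p = 1.65e-08); the Mns1 row had 111, 139 and 155 in CMP and none in Neutrophil. Slc24a5, a pigment cell exchanger across from Myef2, had 267, 278 and 408 and none, at least 128-fold lower. Mfsd3 lies across from the replication helicase Recql4 and had 447, 579 and 642 against 1, 0 and 2, a ratio of 224 lower (76.5 to 1087). Ints8, across from the cyclin gene Ccne2, had 973, 1032 and 1713 against 6, 15 and 0 (-6.97 ± 1.003). Rpain lies 3 bases from C1qbp on the other strand and had 578, 574 and 832 against 0, 2 and 9 (-6.79 ± 0.59). Lower genes with no annotated partner included Ybx3, a cold shock domain protein (150, 189 and 225 and none, at least 75.7-fold), and the cytosolic chaperone Hsp90aa1 (259, 308 and 425 against 0, 0 and 13; -6.39 ± 0.77). The part of opposite-strand reads in any of these differences was not tested. A library left out moved the fitted log2 difference by over 1.5-fold for Hsp90aa1 from -6.39 to -5.75 without Neutrophil replicate 1, -5.75 without Neutrophil replicate 2 and -7.66 without Neutrophil replicate 3, Ints8 from -6.97 to -8.16 without Neutrophil replicate 2 and -5.22 without Neutrophil replicate 3, Rpain from -6.79 to -5.85 without Neutrophil replicate 1 and -7.50 without Neutrophil replicate 3 and Tex9 from -7.41 to -8.09 without Neutrophil replicate 2.

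Markers of other marrow cells were low in Neutrophil for some lists and not for others. Dendritic cell and MHC class II genes summed to 9.28 to 101 CPM in Neutrophil and 41 to 54.3 in CMP. Stromal and endothelial genes summed to 0 to 24 CPM in Neutrophil, and erythroid genes to 235 to 505. Among 9 eosinophil genes, 7 had no read in Neutrophil, among them Epx and Prg2, and the list summed to 12.3 to 27.2 CPM in Neutrophil and to at most 1.61 in CMP. T and NK cell genes summed to 6.19 to 17.6 CPM in Neutrophil and 1.16 to 4.73 in CMP, with Cd3e, Cd4, Nkg7 and Thy1 at 0 in both. The basophil and mast cell list summed to 145 to 227 CPM in Neutrophil, all from Hdc, the histamine-forming enzyme that neutrophils also make (47, 61 and 142 reads), while Fcer1a, Mcpt8, Ms4a2 and Prss34 were at 0. B cell genes summed to 68.1 to 151 CPM in Neutrophil against 28.9 to 43.4, with Cd22 at 0 in both; Cd79a had 14, 29 and 29 reads against 0, 0 and 5 (5.76 ± 0.84). Monocyte and macrophage genes summed to 864 to 1580 CPM in Neutrophil and 242 to 298 in CMP. Of 6 members 4 were higher, including Mpeg1, the pore-forming perforin-2 (240, 219 and 531 against 17, 18 and 26; 5.26 ± 0.29), and the scavenger receptor gene Cd163 was lower (12, 0 and 13 against 208, 210 and 276; -4.34 ± 0.83). C1qb, C1qc and Spic were at 0 in both groups. Megakaryocyte and platelet genes summed to 1750 to 2210 CPM in Neutrophil against 101 to 124 in CMP. Most of the 2663 Neutrophil reads in this sum were from Plek (798), Rap1b (642) and Fyb (433; partner Gm2245). Plek is also on the actin list. All 7 members of that list were higher under every scaling, among them P-selectin Selp (48, 111 and 111 against 1, 0 and 0; partner Gm16548) and Plek (5.92 ± 0.42; partner Cnrip1), while the platelet genes Pf4, Ppbp, Itga2b and Vwf had no read in Neutrophil. The part of other cells in these results was not tested. The fitted log2 difference moved by over 1.5-fold when a library was left out for Cd163 from -4.34 to -5.26 without Neutrophil replicate 1 and -2.93 without Neutrophil replicate 2, Cd79a from 5.76 to 5.17 without CMP replicate 2 and 6.78 without CMP replicate 3, Hdc from 7.13 to 7.79 without CMP replicate 2 and 6.27 without CMP replicate 3 and Selp from 8.24 to 8.90 without CMP replicate 1.

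Inclusion turned on few reads at the threshold. Dock10, Map7 and Hmg20b were just inside, with a value of 3.01 in the library that decided, and Sgk3, Rab23 and Atg9a just outside, with 2.95. Noncoding loci were included as well: the nuclear RNAs Neat1 and Malat1 were higher, with 65, 78 and 163 reads against 6, 6 and 5 (5.31 ± 0.44) and, for Malat1 with the partner Gm37376, 82, 44 and 107 against 13, 12 and 20 (3.65 ± 0.43), and both were picked for mention after their values were seen.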

How the data were processed

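Universal Plus mRNA-Seq libraries of sorted mouse marrow cells were used. The submitters' processing notes name FastQC 0.11.7, featureCounts 1.22.2, edgeR 1.30.5 and GRCm38; the sources used here give no aligner, annotation or strand setting. The authors deposited log2 CPM values. In the deposited table, 100.0% of values came out as whole reads within 0.001 reads, which gave the reads and the implied library sizes.

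The deposited log2 values of 6091 rows were fitted with limma 3.58.1 (R 4.3.3; trended empirical Bayes, 9 libraries, 3 each of Neutrophil, CMP and CD115plusGMP) and adjusted by Benjamini and Hochberg over all of them. The threshold was an adjusted p under 0.05 and a log2 difference of at least 1, two-sided. No count model was used, since the deposited unit is log2; shares and ratios carry exact counting intervals, which cover counting error only. The fit was tested on simulated data.

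"Every scaling" means the deposited values, plain library totals, totals over rows with a symbol, median centring and quantile normalization; the third of these and a voom fit were chosen after seeing the data. Promoters came from RefSeq (GRCm38.p6) and opposite-strand partners (exon overlap of at least 50 bases) from GENCODE M21. Same-numbered libraries did not deviate together. A move of over 1.5-fold with a library left out refers to the fold change and not to its log2 value. The rule for named genes took the 15 largest differences in each direction, the 10 largest with no partner, and up to 6 of each list. The genes and lists were chosen with earlier results of these data known, so no list gives independent support.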

Additional observations from a re-analysis of the deposited data

Results flagged for a closer look

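Rows of the table without a gene symbol were left out of the comparison, yet 289 of 397 such rows above the threshold passed the same limma test. Of these, 155 were higher in Neutrophil and 134 lower. The row with Entrez identifier 100503054 took 21.0%, 20.1% and 20.5% of Neutrophil reads and 0.706%, 0.632% and 0.704% of CMP reads, a log2 difference of 6.28 ± 0.27 (SE, n = 3 per group). The row 100504625 took 7.76%, 7.78% and 7.36% against 0.0431%, 0.0298% and 0.0307% (9.17 ± 0.25). The row 100502827 took 0.150%, 0.138% and 0.151% of Neutrophil reads against 4.56%, 5.12% and 4.90% (-3.69 ± 0.24). These rows are named after their values were seen. They count in the library totals but not in the totals over rows with a symbol.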

How the results depend on the processing

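No gene called in either direction was called in the opposite direction under any alternative run. The number of higher genes, 2369, was 4596 with no filter on low values, 1161 when both groups had to pass the threshold and 1491 with plain library totals. The number of lower genes, 1353, was 893 with a threshold of log2 CPM 4, 599 when both groups had to pass and 2144 with plain library totals. With no filter, 1430 rows with no read in the 6 libraries entered, and 1190 of them were called by the difference in library size alone. Leaving out 1 library gave 2214 to 2400 higher and 1193 to 1443 lower genes. With a replicate block the numbers were 2303 and 1404; the replicate numbers do not pair the samples. Voom on the recovered reads, chosen after seeing the data, gave 2400 and 1432. Genes below the threshold of the test changed sign: Adam17 was -0.65 with plain totals, -0.22 with totals over rows with a symbol (chosen after seeing the data), -0.33 with median centring and -0.42 with quantile normalization, Cr1l was -0.30 with plain totals, Dock10 was -0.37 and -0.048 with plain totals and median centring, and Hmg20b ranged from -1.71 to 0.49 with a library left out, the latter without Neutrophil replicate 3. The cause was not tested. The planned edgeR and DESeq2 fits were not run, because the deposited unit is log2 CPM. Depth limits genes with few reads: 3 to 5 reads pass the threshold in a Neutrophil library.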
